A study of Mus musculus with 8 samples.

Results

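The regions described here are stretches of 5-hydroxymethylcytosine (5hmC) enrichment that lie inside short protein-coding genes of mouse germinal center B cells. Merging the touching or overlapping peaks of 4 libraries gave 341091 union regions on the autosomes. A region belongs to the set when its midpoint falls inside a protein-coding gene shorter than 30 kb and more than 2 kb from a protein-coding gene end, and in no gene of 30 kb or more. The set holds 14154 regions, 4.15% of all autosomal union regions. No measured difference between genotypes entered this choice.

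DNA came from germinal center B cells of the spleen of C57BL/6 mice, with TET2 either intact (wild type, WT) or knocked out (KO). DNA carrying 5hmC was immunoprecipitated and sequenced (hMeDIP-seq) in 2 KO and 2 WT libraries, numbered 2 and 3 in both genotypes, and 4 input libraries had no values analysed here. The labels give neither the TET2 allele, nor a Cre driver, nor age, nor an immunization, and all groups share strain and tissue. Peaks do not read a deletion, so the genotype labels were not checked. They do not say that libraries came from separate animals, so a p-value between genotypes reads only how much these libraries vary, and that variation may be technical. Where 4 values are given by library below, KO stands before WT and replicate 2 before replicate 3.

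TET2 is a dioxygenase that oxidizes 5-methylcytosine to 5hmC, both an intermediate of DNA demethylation and a lasting mark. In many cell types 5hmC is found in the bodies of transcribed genes and at enhancers. Germinal center B cells proliferate in follicles after antigen contact while mutating their antibody genes, and TET2 is often mutated in human lymphomas.

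Sequences within the set could be read where a RefSeq start window, 300 bases around a transcript start, lay wholly inside a region. This held for 39 windows, all at starts inside a host gene's span. The 5 windows below (GRCm38.p6) are shown because the authors called a difference within their regions, or because only KO libraries had a peak there. Capitals mark each CpG, the dinucleotide at which most cytosine methylation and hydroxymethylation occurs in mammals. Irf8 (chr8:120738389-120738688, plus strand), Ccr6 (chr17:8242276-8242575, plus strand) and Dnmt3l (chr10:78049592-78049891, plus strand) lie in regions that the authors called higher in WT. The start of 4930445K14Rik inside Pcif1 (chr2:164883402-164883701, minus strand) does too. The Fcer2a window (chr8:3690341-3690640, minus strand) lies in a region with a peak in both KO libraries and no WT library.
Irf8: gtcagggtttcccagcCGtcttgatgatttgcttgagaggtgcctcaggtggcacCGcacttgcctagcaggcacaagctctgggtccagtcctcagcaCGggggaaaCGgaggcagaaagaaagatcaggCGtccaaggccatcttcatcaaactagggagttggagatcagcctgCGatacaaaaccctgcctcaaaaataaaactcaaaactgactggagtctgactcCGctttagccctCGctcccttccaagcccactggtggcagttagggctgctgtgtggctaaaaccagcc
Ccr6: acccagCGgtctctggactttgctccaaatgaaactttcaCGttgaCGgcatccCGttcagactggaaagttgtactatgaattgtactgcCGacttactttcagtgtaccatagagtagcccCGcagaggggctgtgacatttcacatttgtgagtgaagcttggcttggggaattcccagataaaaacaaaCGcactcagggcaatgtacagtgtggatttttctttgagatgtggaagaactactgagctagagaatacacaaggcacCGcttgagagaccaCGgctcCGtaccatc
Dnmt3l: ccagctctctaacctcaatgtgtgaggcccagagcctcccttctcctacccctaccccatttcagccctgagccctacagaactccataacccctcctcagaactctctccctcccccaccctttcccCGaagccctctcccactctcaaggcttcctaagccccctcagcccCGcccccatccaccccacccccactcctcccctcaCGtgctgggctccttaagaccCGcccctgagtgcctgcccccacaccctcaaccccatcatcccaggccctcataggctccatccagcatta
Pcif1: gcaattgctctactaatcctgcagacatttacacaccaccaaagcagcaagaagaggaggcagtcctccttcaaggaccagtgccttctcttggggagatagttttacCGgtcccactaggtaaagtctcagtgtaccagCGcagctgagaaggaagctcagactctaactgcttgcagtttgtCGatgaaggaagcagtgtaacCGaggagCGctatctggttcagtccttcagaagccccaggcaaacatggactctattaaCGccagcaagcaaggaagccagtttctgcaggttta
Fcer2a: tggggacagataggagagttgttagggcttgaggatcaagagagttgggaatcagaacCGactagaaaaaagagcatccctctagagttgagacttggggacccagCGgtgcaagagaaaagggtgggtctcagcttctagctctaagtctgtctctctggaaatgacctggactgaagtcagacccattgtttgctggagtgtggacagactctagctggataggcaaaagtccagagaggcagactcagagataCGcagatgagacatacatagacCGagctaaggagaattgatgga
The windows hold 8 CpGs in Irf8, 10 in Ccr6, 4 in Dnmt3l, 6 in Pcif1 and 4 in Fcer2a. The called WT-higher stretch itself covers 284 of the 300 bases in Pcif1 and 157 in Dnmt3l, and 0 in Irf8 and Ccr6, where it lies elsewhere in the same region. In Pcif1, which encodes an mRNA cap methyltransferase, the strongest peak of the region was 2.87-fold over background in KO replicate 2, 4.23-fold in WT replicate 2 and 3.13-fold in WT replicate 3, and KO replicate 3 had no peak.

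Start windows wholly inside a region were seldom CpG dense. Among 40 start windows inside short genes and wholly in a union region, 39 of them in the set, the median number of CpGs was 7.5 and 7.5% held 20 or more. Among the 172 start windows inside short genes with any overlap with a region, these 40 included, the median was 6.5 and 15.1% held 20 or more. Among 1080 such windows with no region the median was 6 and 18.3% held 20 or more, and over all 31365 windows read the values were 7 and 27.0%. The 40 windows differ from the rest mainly in the dense tail, with 3 windows of 20 or more CpGs, and the difference was not tested.

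5hmC regions were spread over most short genes rather than gathered in a few. They lay in 5832 of the 9665 short genes longer than 4 kb (60.3%), the length that leaves an interior. A single region was found in 2317 hosts, 2 to 4 in 2836 and 5 or more in 679. Regions were 262 to 4660 bp wide, with a median of 451 bp, and neighbours in a gene lay a median of 1926 bp apart. Together they covered 7.36 Mb, 7.85% of the 93.7 Mb of interior, against 6.77% in genes of 30 kb or more.

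The number of regions per length changed little with gene length up to 200 kb. It was 1.54 regions per 10 kb of interior in genes of 4 to 10 kb and 1.51 in genes of 25 to 30 kb. In genes of 30 to 50 kb it was 1.45, in genes of 100 to 200 kb 1.43 and in longer genes 1.27. Inside short genes it was also level with position, between 1.47 and 1.55 per 10 kb at all distances from the nearer gene end.

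**Figure D1:**
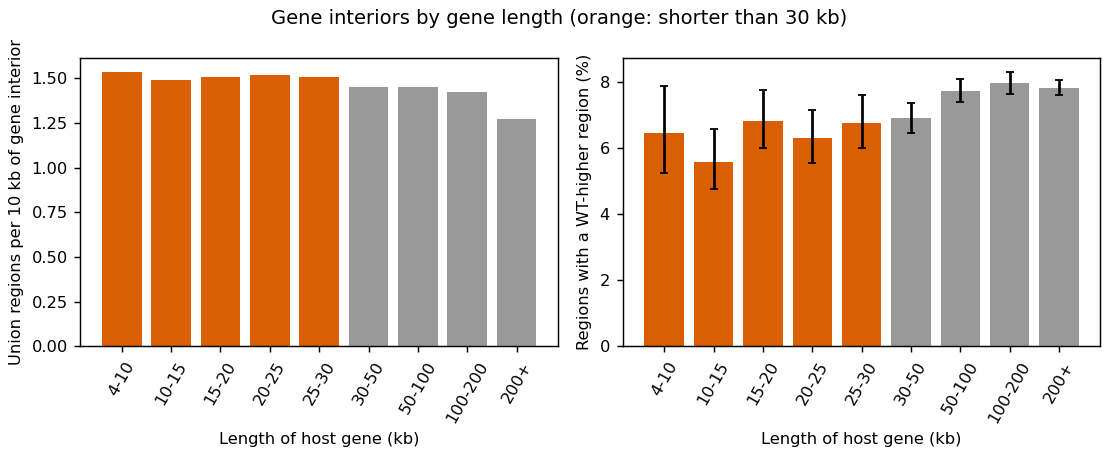
Union regions per 10 kb of gene interior (left) and the percentage of regions overlapping a WT-higher region (right, with 95% Wilson intervals) by length of the host gene in kb; orange bars are genes shorter than 30 kb. Density lies between 1.49 and 1.54 in the 5 orange classes and falls to 1.27 in genes of 200 kb or more, while the share with a WT-higher region is 5.59 to 6.84% in the orange classes and 7.75 to 7.98% from 50 kb on.

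The hosts with most regions were Bckdha (17 regions), Arid3a (16), Sema7a and Zdhhc18 (14 each) and Trim7 (13, as in Vps37b and Xrcc1). Bckdha encodes a subunit of the branched-chain ketoacid dehydrogenase and Arid3a a B cell transcription factor first known as Bright. In Arid3a (chromosome 10, 79927043 to 79955018), peaks covered 5629 and 3279 bases of the regions in KO and 8485 and 6315 in WT. Both KO libraries lay below both WT libraries there. In Sema7a, which encodes a membrane-anchored semaphorin, the values in the same order were 7132, 4996, 7769 and 7086 bases, so the genotypes overlapped.

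The strongest regions were chosen for high enrichment in all 4 libraries, so that they are high in both genotypes follows from the choice. Ranked by the lowest of their 4 fold enrichments, which are the authors' values over local background, the leading regions lay in Creg1, Mettl22, Pxdc1, Pigf and Anxa7. The Creg1 region (chromosome 1, 165767002 to 165768627), in a gene for a lysosomal glycoprotein, reached 14.8 and 15.1-fold in KO and 19.9 and 18.5 in WT. The Anxa7 region, in a gene of the calcium-binding annexins, reached 17.2, 13.1, 19.5 and 12.6 in the same order. Peaks of WT replicate 2 were the strongest in each of the 5 by this measure. Enrichment of that library was also the highest over all regions, with a median of 5.57-fold against 4.39 to 5.10 in the others.

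The widest regions were in 4930444P10Rik (4660 bp), Muc6, Gm9573, Zfp872 and again Pxdc1. All 4 libraries covered most of each: in 4930444P10Rik peaks covered 4660, 4577, 4621 and 4618 bases, and in Muc6, a gastric mucin gene, 4519, 4014, 4518 and 4577 bases, in the same order of libraries.

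Depth and quality differed between the libraries across the whole genome, which touches each comparison below. The deposited lists held 270548 to 300954 peaks. Autosomal peaks covered 131 and 106 Mb in KO and 120 and 134 Mb in WT. Covered bases of single genes and regions are unscaled unless called scaled, so they are not adjusted for these totals. The most frequent local background, recovered from fold and p, was 10.9 to 11.7 reads in 3 libraries and 8.66 in WT replicate 2. KO replicate 3 had the narrowest peaks over all regions (median 348 bp against 406 to 431) and the lowest fold enrichment (4.39). Its part in the differences was not tested beyond the values given without it.

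The genotypes overlapped in the number of short-gene regions with a peak. A peak lay in 10879 and 10334 regions in KO and 10744 and 11646 in WT. KO replicate 2 lay between the WT libraries and KO replicate 3 below both. The means were 10606.5 in KO and 11195 in WT, a difference of -588.5 regions (exact two-sided permutation p = 0.667, where 2 against 2 libraries can give no p below 0.333).

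As a share of each library's autosomal peak bases, the regions took 4.29 and 4.10% in KO and 4.43 and 4.28% in WT. The KO mean was lower (difference -0.155 percentage points, exact two-sided permutation p = 0.667). Again the genotypes overlapped, and KO replicate 3 was the lowest library.

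Peaks in short genes were somewhat weaker than peaks in longer genes or outside genes, in every library. The KO libraries had median fold enrichments of 4.78 and 4.28 there, and the WT libraries 5.18 and 4.65. In genes of 30 kb or more it was 4.94, 4.36, 5.38 and 4.81 in that order, and outside genes 5.21, 4.47, 5.69 and 5.04. Short-gene peaks were lowest of these 3 classes in 4 of 4 libraries. Within 2 kb of a gene end the medians were lower still, at 4.70, 4.21, 5.07 and 4.57 in that order. By percentile of peak strength, described below, the median region was at 32.1 both in short genes and in genes of 30 to 100 kb. Weaker peaks are thus not particular to short genes.

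**Figure D2:**
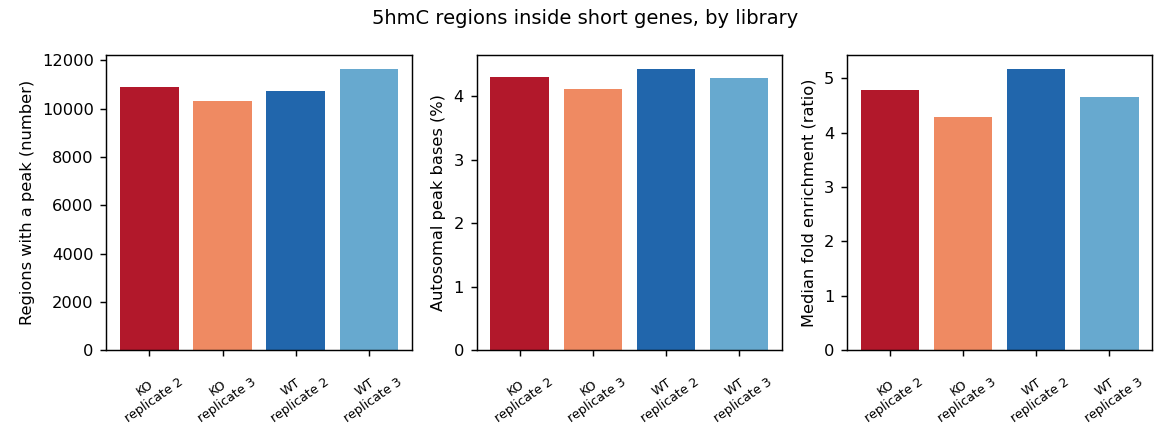
Number of short-gene regions with a peak, their share of autosomal peak bases (%) and the median fold enrichment (ratio) of their peaks, 1 bar for each library, with no error since each bar is 1 library. KO replicate 3 is the lowest in all 3 panels (10334 regions, 4.10% and 4.28-fold), and KO replicate 2 lies at or above 1 of the WT libraries in each.

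Most regions were present in all 4 libraries. This held for 57.2% of the short-gene regions, beside 60.2% of all autosomal regions. The share was 56.6% in genes of 30 to 100 kb and 59.6% in genes of 100 kb or more. Within 2 kb of a gene end it was 54.9%, and outside genes 61.9%. A further 18.7% of the short-gene regions had a peak in a single library. Regions in both WT libraries and no KO library numbered 350 (2.47%, beside 1.92% of all regions). Regions in both KO libraries and no WT library numbered 178 (1.26%, beside 1.29%). The ratio between these counts was 1.97, beside 1.49 over all regions. With equal numbers of peaks per library it was 1.13, and with peaks of at least 5-fold 8.19, so its size depends on how peaks are selected. Leaving out a library shifts it by construction, since a region then needs 1 library of that genotype and 2 of the other. Without KO replicate 3 the counts were 651 and 674 (ratio 0.966), without KO replicate 2 the ratio was 1.42, and without WT replicate 2 it was 3.28.

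The WT-only regions with the highest enrichment lay in Iffo1, Ncmap and Mep1a. The Iffo1 region (chromosome 6, 125154855 to 125155236) reached 5.90-fold in WT replicate 2 and 5.44 in WT replicate 3. In Mep1a, the gene of the meprin A protease subunit, the values were 4.76 and 5.28. KO-only regions were led by Mall, Ctr9 and C3. The Ctr9 region (chromosome 7, 111034365 to 111034757), in a gene of the PAF1 transcription elongation complex, reached 4.14-fold in KO replicate 2 and 4.72 in KO replicate 3. C3, the central complement component, had 4.30 and 4.13. These are single peaks of moderate height, chosen for their pattern, so no test is attached to them.

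The Fcer2a region shown above (chromosome 8, 3690294 to 3690873) was another KO-only region, with 3.11-fold in KO replicate 2 and 4.89 in KO replicate 3. Fcer2a encodes CD23, the low-affinity IgE receptor of B cells.

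The authors' deposited tables list regions that they called higher in WT (WT-higher) or higher in KO (KO-higher). A WT-higher region overlapped 911 short-gene regions (6.44%, 95% Wilson interval 6.04 to 6.85), beside 6.71% of all autosomal regions. KO-higher regions overlapped 2, in Catip and Ubxn11, beside 0.00616% of all regions. The direction of the calls is that of the authors' tables, which carry no values per replicate. Intervals here cover counting error only, and neighbouring regions share genes and libraries.

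The share was lower than in longer genes. It was 7.46% (7.19 to 7.74) in genes of 30 to 100 kb and 7.88% (7.69 to 8.08) in genes of 100 kb or more. Outside genes it was 6.20% (6.09 to 6.31), and within 2 kb of a gene end 6.12% (5.80 to 6.47). The interval of the short genes thus overlaps those outside genes and at gene ends and lies below those of longer genes. At the edge of the definition no step was seen: hosts of 25 to 30 kb had 6.77% and genes of 30 to 35 kb, just outside it, 6.00%. Regions 1.5 to 2 kb from a gene end, also just outside, had 7.12%, and those at 2 to 2.5 kb, just inside, 6.50%.

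Peak strength, taken as the mean percentile of a region's peaks within their own lists, changed this picture. From the weakest to the strongest quintile of all regions, the share of short-gene regions with a WT-higher region was 4.59, 5.23, 4.97, 5.42 and 13.4%. In genes of 100 kb or more it was 4.62, 3.55, 4.14, 7.77 and 19.7%. Outside genes it was 2.04, 1.63, 2.57, 5.90 and 17.7%. Short-gene regions therefore had higher shares than regions outside genes in the 3 weaker quintiles and a lower share in the strongest one. Regions at gene ends had 4.21, 4.25, 4.32, 5.59 and 14.3%, and genes of 30 to 100 kb had 15.1% in the strongest quintile. The pattern is thus not particular to short genes.

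In the strongest quintile the short-gene share was 13.1 to 14.3% when any 1 library was left out, against 19.4 to 21.1% in genes of 100 kb or more and 17.3 to 19.0% outside genes. With WT-higher regions of a score of at least 5 only, it was 4.36%, against 7.60% and 6.47%. Short genes also held fewer strong regions, 17.0% in the strongest quintile and 28.5% in the weakest. Genes of 30 to 100 kb were similar, with 17.1% and 27.0%. With strengths weighted as in the short genes, regions of genes of 30 kb or more would have 7.54% and regions outside genes 5.47%, against the observed 6.44%.

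**Figure D3:**
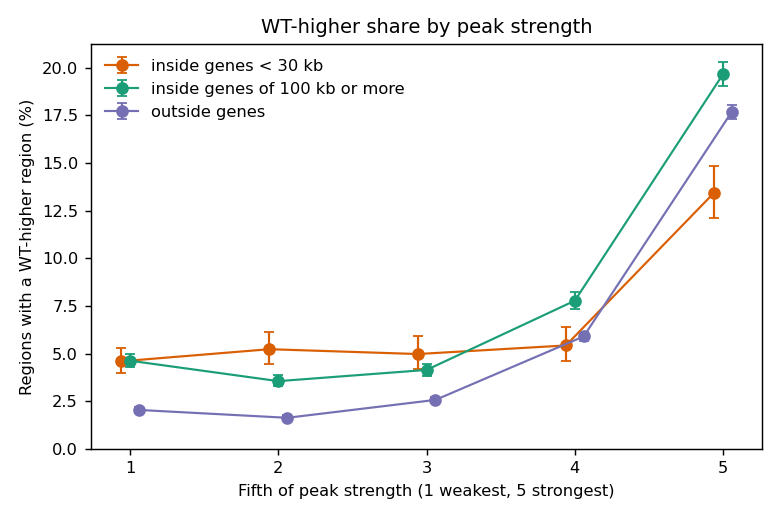
Percentage of union regions overlapping a WT-higher region by quintile of peak strength (1 weakest, 5 strongest), for regions inside genes shorter than 30 kb, inside genes of 100 kb or more and outside genes, with 95% Wilson intervals. The short-gene line is level near 5% over 4 quintiles and rises to 13.4%, below the 19.7% and 17.7% of the 2 classes drawn beside it; gene ends, not drawn, reach 14.3%.

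Called regions mostly kept a peak in KO. Of the 932 WT-higher regions within the short-gene regions, 81.7% overlapped a peak of KO replicate 2, 66.4% one of KO replicate 3, 97.1% one of WT replicate 2 and 89.9% one of WT replicate 3. Over all WT-higher regions in union regions these shares were 90.1, 80.9, 97.7 and 94.7%. Each library thus had a peak less often in the short-gene calls, and KO replicate 3 least often of all. Among regions present in 1, 2, 3 and 4 libraries, 3.22, 5.27, 5.74 and 7.88% had a WT-higher region, beside 2.02, 2.90, 4.29 and 9.20% of all regions.

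WT-higher regions were spread over 740 host genes, of which 616 had a single affected region and 124 had 2 or more. The host with most was Tctn1, a gene of the ciliary transition zone, with 7. Ccr6, the receptor of the chemokine CCL20, Irf8, a transcription factor of B cell and myeloid development, Zdhhc18, a palmitoyltransferase gene, Vps37b, of the ESCRT-I sorting complex, and Bckdha had 5 each. Pigr, the polymeric immunoglobulin receptor, Txndc5, a disulfide isomerase of the endoplasmic reticulum, Endou, Nsmce1, of the SMC5/6 complex, Tram1, of the protein translocation channel, and Cnr2, the cannabinoid receptor of immune cells, had 4 each.

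In Tctn1 (chromosome 5, 122239495 to 122264489), peaks covered 6184 and 4785 bases of the 10 regions in KO and 7444 and 6657 in WT. Both KO values lay below both WT values. At the region with 2 of the calls (122260428 to 122262637), the strongest peak was 8.76 and 6.40-fold in KO and 11.6 and 5.36 in WT. There WT replicate 3 was the lowest by this measure. The 2 calls cover only parts of the region, and the strongest peak need not lie in them.

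In Ccr6 (chromosome 17, 8236041 to 8258519), the 8 regions had 5683 and 2770 covered bases in KO and 5094 and 3215 in WT. In these unscaled bases KO replicate 2 was the highest and KO replicate 3 the lowest, and the genotypes overlapped. At the region around the printed start (8241236 to 8242709), fold enrichment was 5.02, 4.82, 7.45 and 6.20 in the same order, with both KO libraries below both WT libraries. At its strongest called region (8254420 to 8255236) the values were 11.9, 6.83, 13.9 and 9.70, and the genotypes overlapped.

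In Irf8 (chromosome 8, 120736358 to 120756694), the 11 regions had 10666 and 6203 covered bases in KO and 9620 and 8330 in WT. KO replicate 2 was again the highest. The region around the printed start (120738260 to 120740491) holds the highest-scored call of the gene, at 7.54, and its folds were 5.03, 4.55, 6.52 and 4.26 in that order. Here too the genotypes overlapped by peak height.

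This order was common among the leading hosts. In unscaled bases KO replicate 3 was the lowest library in 12 of the 12. It was also the lowest in 491 of all 679 hosts with 5 or more regions (72.3%). Its peaks covered the fewest bases over all autosomes as well (106 Mb against 120 to 134 Mb). Whether its rank in these hosts goes beyond that was not tested. KO replicate 2 exceeded WT replicate 3 in 7 of the 12, and in 343 of the 679 (50.5%). Both KO libraries lay below both WT libraries in the other 5, Tctn1, Pigr and Endou among them, and in 153 of the 679 (22.5%). The 12 were chosen for their WT-higher regions, so their counts are a description. In Pigr (chromosome 1, 130826684 to 130852249) the covered bases were 1622, 783, 2352 and 2734 in the order used above, and in Endou 3858, 1731, 5832 and 5463.

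**Figure D4:**
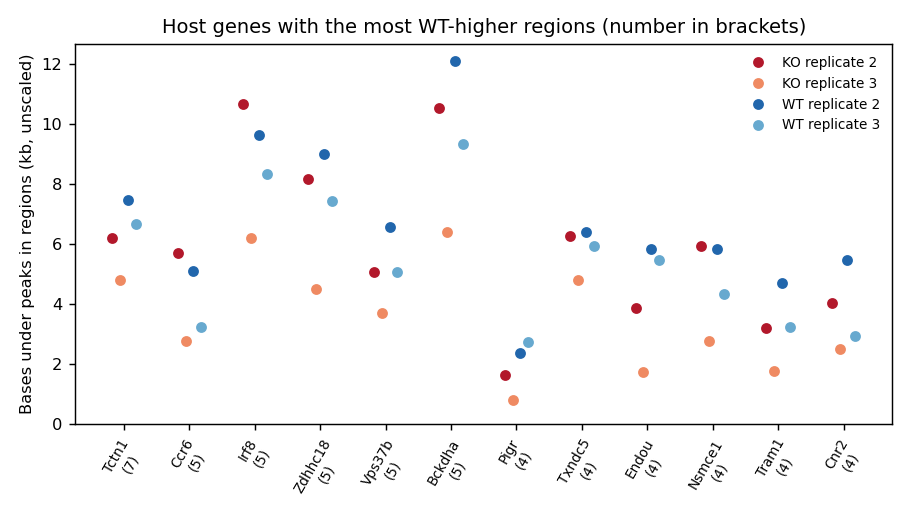
Bases under peaks (kb, unscaled) in the short-gene regions of the 12 host genes with most WT-higher regions, whose number stands in brackets; each point is 1 library. KO replicate 3 is the lowest point in 12 of 12 genes, and KO replicate 2 lies above WT replicate 3 in 7.

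In the authors' deposited table the highest score of a call in a short gene was 22.6, in Sidt2, the gene of a lysosomal membrane protein. Its region (chromosome 9, 45939245 to 45941703) had a fold enrichment of 14.7 and 9.20 in KO and 18.8 and 13.7 in WT. KO replicate 2 lay between the WT libraries. The hairpin of Mir7087 (chr9:45939521-45939590, minus strand, RefSeq GRCm38.p6), 1 of 7 miRNA hairpins wholly inside short-gene regions, lies in it and is shown because of that call.
Mir7087: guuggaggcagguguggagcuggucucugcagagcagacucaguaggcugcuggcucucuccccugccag
The call itself (45941175 to 45941594) lies apart from the hairpin.

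Other high scores fell on weak peaks of a single library. The regions in Cklf (score 13.0), Ccdc125 (12.7), Foxm1 (11.7) and Slc2a1 (11.0) had a peak in WT replicate 2 alone, of 3.52-, 3.31-, 3.83- and 3.52-fold. Foxm1 encodes a transcription factor of the cell cycle and Slc2a1 the glucose transporter GLUT1. The Bnip5 region (11.6) had 5.82- and 4.72-fold in KO and 5.07- and 4.34-fold in WT, with KO replicate 2 the highest. Of the 34 short-gene regions with a call of score 8 or more, 32.4% had a peak in all 4 libraries and 29.4% in WT replicate 2 alone. Over all 568 such regions the shares were 56.2% and 9.15%.

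The KO-higher region in Catip (score 9.03, chromosome 1, 74365214 to 74365882) had a peak in KO replicate 3 only, of 7.11-fold. That in Ubxn11 (3.61, chromosome 4, 134118628 to 134119209) had 4.30-fold in KO replicate 2, 3.82 in KO replicate 3 and 3.73 in WT replicate 2, and no peak in WT replicate 3.

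**Figure D5:**
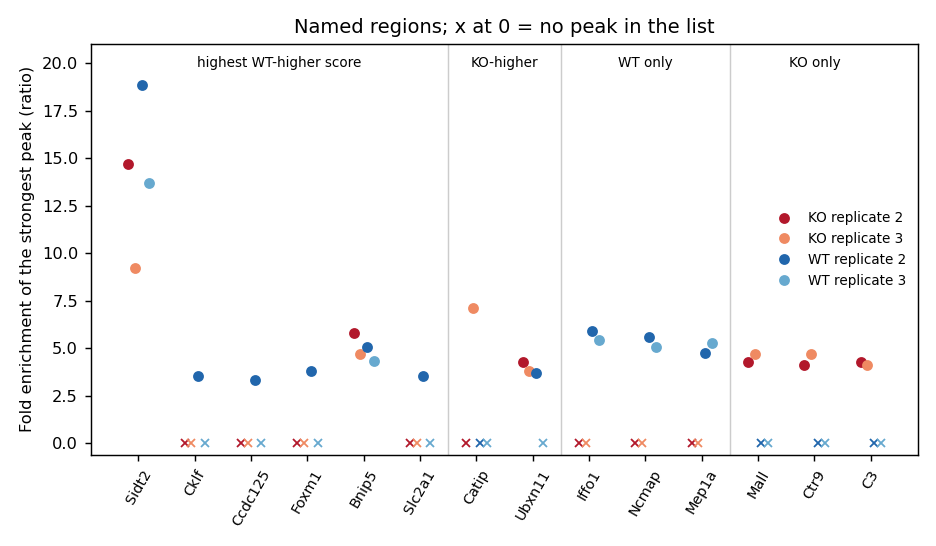
Fold enrichment (ratio) of the strongest peak of each library in regions named by WT-higher score, KO-higher call, or presence in 1 genotype only; a cross at 0 marks a library with no peak there. The 4 regions of Cklf, Ccdc125, Foxm1 and Slc2a1 carry a peak in WT replicate 2 alone, and Sidt2 stands highest, from 9.20 to 18.8.

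In 7 lists of B cell genes, 78 of 119 short genes held 321 regions, and 49 of these (15.3%, 11.7 to 19.6) had a WT-higher region, against 6.44% of all short-gene regions. With strengths weighted as in these 321 regions, autosomal regions outside the short-gene set would have 5.16%. With a score of at least 5 the counts were 18 of 321 (5.61%), against 2.79% of all short-gene regions. In 5 lists of other cell types, 3 of 64 regions had a WT-higher region (4.69%, 1.61 to 12.9). The same weighting to the strengths of these 64 gave 7.23%. The lists were chosen with results of these data known, so these counts are a description.

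The 7 lists differed in their counts. Receptors of germinal center migration and confinement had 13 of 57 regions with a WT-higher region, transcription factors 11 of 61, and genes of CD40, TNF receptor and NF-kB signalling 9 of 54. B cell receptor chains and coreceptors had 5 of 29, plasma cell and secretory genes 4 of 19, antigen presentation 5 of 58 and B cell receptor signalling 4 of 49. Irf4 and Tnfrsf17 each stand in 2 of these lists, and Lck stands in the signalling list and in that of T cell markers. Outside the 7, lymphoma genes had 8 of 43, of which Irf8 gave 4, antibody diversification and DNA repair 3 of 28, cell cycle 2 of 30, apoptosis 2 of 22 and 5mC and 5hmC enzymes and readers 1 of 27.

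Among receptors, Ccr6 and Cnr2 led, followed by Gnai2, a G protein subunit, and Cxcr5, which guides B cells into follicles, with 2 calls each. In Cxcr5 (chromosome 9, 44511787 to 44526444), all 5 regions had a peak in all 4 libraries. Covered bases were 4216 and 2511 in KO and 4472 and 3353 in WT, and the genotypes overlapped. In Cnr2 (chromosome 4, 135895189 to 135920219) they were 4040, 2484, 5455 and 2932 in the same order. S1pr2, the receptor that confines germinal center B cells, had 4 regions and no call.

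Among transcription factors, Pou2af1, a B cell coactivator, Tcf3, which encodes E2A, and Irf4, needed for plasma cells, had 2 calls each beside the 5 of Irf8. In Tcf3 (chromosome 10, 80409541 to 80433976) covered bases were 2705 and 1185 in KO and 3501 and 2019 in WT. In Pou2af1 they were 3624, 3025, 5840 and 3608, so that KO replicate 2 and WT replicate 3 were nearly level before scaling. Bcl6, the defining repressor of germinal center B cells, had 10 regions, 8 in all 4 libraries, and no call. Its covered bases were 4463, 4374, 4205 and 4362 in that order, nearly level before scaling. KO replicate 3 was among these although its peaks covered the fewest autosomal bases (106 Mb).

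Surface and signalling genes differed in whether the genotypes overlapped. Ms4a1, the gene of CD20, had 2 of 4 regions with a call, and covered bases of 2275 and 946 in KO and 2281 and 1748 in WT. The single region of Cd79a, a chain of the B cell receptor, had 2505, 1150, 2666 and 1187. Ptpn6, the SHP-1 phosphatase gene, had 3 calls in 5 regions. Cd40 (chromosome 2, 165055614 to 165071654), the costimulatory receptor, had 2 calls, and its 3742, 3157, 4454 and 4648 bases put both KO libraries below both WT libraries. Bcl3, an atypical inhibitor of NF-kB, had 2362, 2157, 3125 and 3173, again without overlap.

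Cd22, an inhibitory coreceptor, had 7 regions and no call. Xrcc1, a single-strand break repair gene, had 3 calls in 13 regions, E2f2, a cell cycle transcription factor gene, 3 in 9, and Dnmt3l, a cofactor of DNA methyltransferases, 1 in 5.

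Peaks of 5hmC do not measure expression, so cell type markers could be read only by whether they held regions. Of 7 short B cell markers 6 held regions (29 in all, 6 with a WT-higher region), as did 6 of 8 T cell markers (23 regions, 2 with one). Of 5 short myeloid and 4 erythroid markers, 2 and 2 held regions, 4 each. Both short neural markers, Gfap of astrocytes and Tubb3 of neurons, held 3 regions in all, and 1 of 4 liver markers, Ttr, held 1. No region of these last 4 types had a WT-higher region. Regions thus lay in markers of each cell type, and the purity of the cells was not tested.

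Tested over whole gene interiors, short genes gave no call. On the scale log2(bases under peaks + 200), after scaling libraries to the same total, limma called 0 of 3554 host genes at an adjusted p of 0.05 (0.0% of the 10430 genes tested). At an unadjusted p under 0.05 there were 143 hosts (4.02%, beside 4.28% of all genes), 105 lower and 38 higher in KO. Without WT replicate 2 that split no longer leaned towards lower values in KO, and whether the lean rests on that library was not tested. The split over all genes tested was not counted, so the lean is not shown to be particular to short genes. Both KO libraries lay below both WT libraries in 540 hosts (15.2%, beside 16.1% of all genes tested) and above in 488 (13.7%, beside 14.6%), shares near the background. Without KO replicate 2, limma called 27 hosts (0.773%, beside 0.502% of all genes), all lower in KO, and without KO replicate 3 it called 1 (0.0273%, beside 0.0189%).

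The hosts with the smallest p, lower in KO, were Ttpal, Tmem50b, Dctn6, Nynrin and Prrc2a. In Ttpal (chromosome 2, 163602285 to 163619013) the scaled bases were 822 and 775 in KO and 2490 and 1868 in WT. The log2 difference, KO against WT, was -1.24 (standard error 0.19, limma adjusted p = 0.999). Dctn6, a dynactin subunit gene, had 393, 427, 1184 and 1148 scaled bases in that order and a log2 difference of -1.16 (standard error 0.21). These groups do not overlap, but none of the 5 passed the adjustment.

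Those with the smallest p, higher in KO, included Lipe, Ccnd2, Ccdc127 and Csad. Ccnd2, the cyclin D2 gene (chromosome 6, 127125162 to 127152188), had 1092 and 1051 scaled bases in KO and 492 and 629 in WT. Its log2 difference was 0.75 (standard error 0.21, limma adjusted p = 0.999). Lipe, the hormone-sensitive lipase gene, had 2079, 2026, 1336 and 1179 and a log2 difference of 0.63 (standard error 0.15). With peaks of at least 5-fold only, the Lipe difference was -0.10 and that of Csad -0.04, so their direction turned.

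None of the gene lists gave a call. Among the transcription factors 10 hosts were tested, 8 with a lower and 2 with a higher value in KO and a median log2 difference of -0.23. In CD40, TNF receptor and NF-kB signalling the counts were 9 and 4 of 13, with a median of -0.25. Plasma cell and secretory genes went the other way, with 1 lower and 3 higher and a median of 0.22. The medians of the remaining lists lay between -0.13 and 0.10. Over all 3554 hosts the median was -0.0043, with 1810 lower and 1744 higher.

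Tested 1 by 1, the regions gave no call either: limma called 0 of 11510 short-gene regions (0.000355% of the 281695 regions tested). At an unadjusted p under 0.05 there were 326 (2.83%, beside 2.12%), 188 lower and 138 higher in KO. The count depends on the settings: without the filter on low coverage limma called 158 short-gene regions (1.12%, beside 0.875% of all regions) and without scaling 109 (0.954%, beside 0.556%). The direction split at an unadjusted p under 0.05 also turned towards higher values in KO without WT replicate 2. It stayed towards lower values without KO replicate 2. The split over all regions tested was not counted, so it is not shown to be particular to short genes.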

How the data were processed

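Peaks were called per library. The tools, per the submitters' processing notes, were MACS2 (2.1.0.20151222) and BWA (0.7.12-r1039), on GRCm38.p3. Settings are not given in the sources used here. The deposited lists give each peak's fold enrichment (a ratio over local background), −log10 p and −log10 q as the authors' own values. Peak strength was ranked within each list. Fold enrichments set side by side for single regions are unscaled, while the library medians differ (5.10 and 4.39 in KO, 5.57 and 4.89 in WT). They belong to the strongest peak of a library anywhere in the region. That peak need not lie in the stretch the authors called. The authors' deposited tables of differential regions carry a score whose scale, caller and compared libraries are not given in the sources used here. No read totals were given. Whole pileups were recovered from fold and p for at least 99.997% of peaks (within 0.01 of the −log10 p).

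Gene spans came from RefSeq GRCm38.p6, which has 1 span per gene without exons, so exons and introns were not told apart. "Gene end" means the end of a protein-coding gene, and the host is the shortest containing gene (72 regions lie in 2 or more). Strand was known for 78.9% of regions, under 80%, so a check by direction of transcription is void and the distance to the nearer end was used. Start windows of chromosome 18 were not read. A library had a region with 1 bp of its peaks.

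Values per library were compared by exact permutation. Covered bases were tested with limma 3.58.1 (trend, robust; R 4.3.3) for means of at least 150 bases per region and 500 per gene interior, over all autosomal features, with Benjamini-Hochberg adjustment at 0.05. Fold changes on the log2(bases + 200) scale understate those of features with few bases. Both fits were tested on simulated data first, where the region fit missed most changes, so a count of 0 regions says little about single regions. With 200 regions changed and each region's own variance, it also made 44, 61 and 74 false calls at 2-, 4- and 8-fold. With variances drawn from the fitted prior there were 5, 0 and 12. Region calls under other settings may therefore include false ones, and those settings were not simulated. The gene fit recovered 19% of 2-fold changes with variances drawn from the fitted prior, and 74% with each gene's own estimate. A count of 0 hosts therefore does not exclude changes of about 2-fold.

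Named genes were those with most WT-higher regions (12) or most regions (5), with the smallest limma p (5 per direction) and up to 5 per list by WT-higher regions, and the regions of highest score (6), with a KO-higher call, the strongest and widest (5 each), and those in 1 genotype only (3 each). The hosts of printed sequences, Bcl6, S1pr2, Xrcc1 and other members of the lists were named after their values were seen. Some genes that the rule names are not reported here. Regions and gene lists were chosen with earlier results of these data known.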

Additional observations from a re-analysis of the deposited data

How the results depend on the processing

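The share of regions with a WT-higher region was 6.21 to 6.74% with 1 library left out, 2.79% with calls of score 5 or more and 9.07% with peaks of at least 5-fold. The share present in all libraries was 61.3 to 65.3% with 1 library left out (fewer libraries by construction), 45.4% with peaks of at least 5-fold and 53.9% where peaks had to cover most of a region (0.5 or more). The ratio of WT-only to KO-only regions ran from 0.966 (without KO replicate 3) to 3.28 (without WT replicate 2), shifted by construction, since 1 genotype then needs fewer libraries. It was 8.19 with peaks of at least 5-fold and 1.13 with equal numbers of peaks, and the cause was not tested. The KO minus WT difference in regions with a peak was -1047 to -150.5, and in the share of peak bases -0.248 to -0.0603 percentage points, with 1 library left out, negative each time. Calls by limma among short-gene regions numbered 158 without a filter, 109 without scaling, 8 with peaks of at least 5-fold, 1 with equal numbers of peaks, and 0 to 25 with 1 library left out (25 without KO replicate 2, 12 without KO replicate 3). Among hosts they numbered 0 to 27. With peaks of at least 5-fold the called short-gene regions were 0.146% of those tested, beside 0.0609% of all regions. The 1 call with equal numbers of peaks was also the only call over all regions. Fits with 1 library left out rest on 1 library of a genotype, so their counts are not compared with all regions. A genotype left with 1 library was assumed to vary like the other. The log2 difference of Nynrin turned to 0.16 with equal numbers of peaks, and was -1.60 without KO replicate 2 (limma adjusted p = 0.0322). With peaks of at least 5-fold that of Lipe was -0.10 and of Csad -0.045. Setting the gene ends of all RefSeq genes in place of protein-coding ones, and the analyses by peak strength, were chosen after seeing the data. The number of libraries, 2 per genotype, limits every comparison between genotypes.

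Same-numbered libraries did not deviate together (correlation 0.0403 over 279706 regions), so the numbers are not taken to pair them. With the replicate number as a block, limma called 684 short-gene regions (459 lower in KO; 5.94%, beside 4.90% of all regions) and 0 hosts, and the differences stayed at -588.5 regions and -0.155 percentage points, which a block cannot move.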
